A study of Homo sapiens with 6 samples.

Results

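The 10 genes TNFSF11, TNFRSF11A, TNFRSF11B, CSF1, CSF2, CSF3, SPP1, IBSP, RUNX2 and VCAM1, regulators of osteoclasts and genes of bone matrix and adhesion, were followed in 3 human breast cancer lines of 1 family, after cell sorting. They were chosen by name, and each was read from the array feature (transcript cluster) that the platform annotation pairs with its symbol. Each of 9 of the 10 genes had 1 such cluster, out of 18418 gene symbols read in this way. No cluster was paired with CSF2 in the annotation used, so CSF2 is not analysed here.

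RNA came from cells sorted with magnetic beads as CD24-/CD44+/ESA+, a surface profile used to enrich breast cancer stem cells, where ESA is the protein of EPCAM. The 3 groups were sorted 231BoM-1833 cells, sorted 231BrM-2a cells and sorted MDA-MB-231 cells, with 2 biological replicates each on Affymetrix Human Gene 1.0 ST arrays. MDA-MB-231 is a mesenchymal, triple-negative breast cancer line, and 231BoM-1833 and 231BrM-2a are highly metastatic derivatives of it, known as bone-seeking and brain-seeking. All were grown in culture with 10% serum and the labels name no treatment; neither bone nor brain tissue was present, and each derivative is a single selected line. The labels do not say whether replicates came from separate cultures or sorts, so p-values measure only the spread between these arrays, which may be technical.

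Bone is removed by osteoclasts, which form from myeloid precursors when RANK (TNFRSF11A) on their surface meets its ligand RANKL (TNFSF11) in the presence of macrophage colony-stimulating factor (CSF1). Osteoprotegerin (TNFRSF11B) is a soluble decoy that binds RANKL and keeps it from RANK. Osteopontin (SPP1) and bone sialoprotein (IBSP) are acidic matrix proteins through which cells attach to mineral, RUNX2 is the transcription factor that sets the osteoblast programme, and VCAM1 is an adhesion molecule that binds integrins on leukocytes and osteoclast precursors.

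The deposited values are log2 expression values after RMA normalisation. CD44, a sort marker, lay at 11.45 to 12.17 over the arrays, CD24 at 5.76 to 6.49 and EPCAM at 7.28 to 8.32. VIM, the intermediate filament gene of mesenchymal cells, lay at 12.30 to 12.92. ZEB1, a further mesenchymal marker, lay at 9.0 to 9.56 and CDH1, listed as low, at 5.19 to 5.96. VIM was 1.51-fold higher in 231BoM-1833 than in 231BrM-2a (limma adjusted p = 0.00256) and 1.30-fold lower in 231BrM-2a than in MDA-MB-231 (0.0294). ZEB1 was lower than in MDA-MB-231 in 231BoM-1833 (1.36-fold, 0.0248) and 231BrM-2a (1.45-fold, 0.00855). These calls against MDA-MB-231 were each lost in some fits without 1 array. Of the 3 receptor genes whose proteins a triple-negative line lacks, ESR1 lay at 5.0 to 5.24, PGR at 4.48 to 4.80 and ERBB2 at 8.29 to 9.25. ERBB2 was 1.74-fold lower in 231BoM-1833 than in 231BrM-2a (limma adjusted p = 0.00102). Of 9 measured leukocyte markers, 8 had line means of 3.62 to 6.12, and CD68, a lysosomal gene also active outside leukocytes, had means of 10.91 to 11.54 and was 1.54-fold higher in 231BoM-1833 than in 231BrM-2a (0.00389). Of 7 endothelial markers, CDH5, VWF, TEK, SELE and PECAM1 had line means of 4.41 to 5.83, while KDR had means of 6.86 to 8.43 and TIE1 of 5.84 to 7.74, and both differed between the derivatives (3.69e-05 and 0.000364). Across clusters, r was 0.9935 to 0.9959 within a line and 0.9666 to 0.9832 between lines.

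Differences were tested with limma, fitted to all 6 arrays and adjusted over 21214 clusters with a gene symbol (Benjamini-Hochberg), and a gene is said to rise or fall where its adjusted p was under 0.05. In 231BoM-1833 against MDA-MB-231, 1 of the 9 measured genes rose, TNFRSF11B, and 0 fell, where 8.43% of all tested clusters rose and 7.38% fell (15.8% in either direction). Where limma called 0, the counts at an unadjusted p under 0.05 were 1 lower in 231BoM-1833. In 231BrM-2a against MDA-MB-231, 2 rose, CSF1 and TNFRSF11B, and 2 fell, TNFRSF11A and CSF3, where 10.5% of all clusters rose and 8.59% fell (19.0% in either direction). Between the derivatives, TNFRSF11A and CSF3 were higher and CSF1 lower in 231BoM-1833 than in 231BrM-2a, where 11.0% of all clusters were higher and 12.5% lower (23.5% in either direction). The comparisons with MDA-MB-231 share its 2 arrays. The median log2 change of the 9 genes was 0.087 in 231BoM-1833 and -0.13 in 231BrM-2a, each against MDA-MB-231, beside -0.052 and -0.050 over all clusters. Between the derivatives it was 0.11, beside -0.013. In RNA from many cells, fewer cells of a type and less RNA per cell cannot be told apart.

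**Figure D1:**
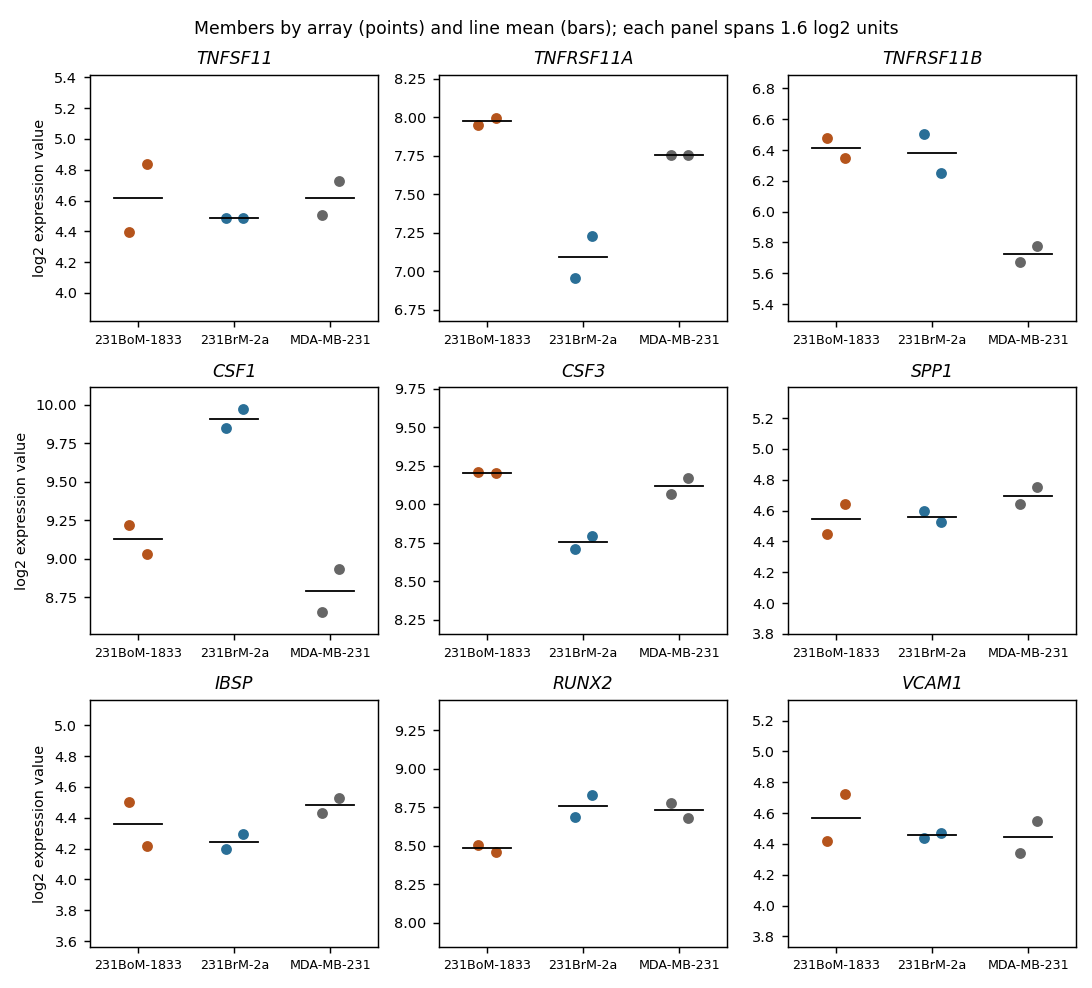
Log2 expression value of each of the 9 measured genes on each array (points, 2 per line) with the line mean (bar), in panels that each span 1.6 log2 units. TNFRSF11B is higher on all 4 derivative arrays than on both MDA-MB-231 arrays, TNFRSF11A and CSF3 are lowest and CSF1 highest on the 2 arrays of 231BrM-2a, and TNFSF11, SPP1, IBSP and VCAM1 lie within 4.20 to 4.84.

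The ligand gene TNFSF11, which encodes RANKL, was dim in all 3 lines. It measured 4.40 and 4.84 in 231BoM-1833, 4.49 on both arrays in 231BrM-2a, and 4.51 and 4.73 in MDA-MB-231. The MDA-MB-231 values lie inside the range of 231BoM-1833 and above both values of 231BrM-2a. The log2 change was 0.0013 ± 0.15 (SE) in 231BoM-1833 against MDA-MB-231, with a 95% interval of -0.34 to 0.35 (limma adjusted p = 0.996), and -0.13 ± 0.15 in 231BrM-2a, with an interval of -0.47 to 0.22 (adjusted p = 0.597). The deposited values come with no background level, so whether TNFSF11 is transcribed in these cells cannot be read from them.

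TNFRSF11A, the gene of the receptor RANK, had the largest difference between the derivatives among the 9 genes. It measured 7.95 and 8.0 in 231BoM-1833, 6.96 and 7.23 in 231BrM-2a, and 7.75 and 7.76 in MDA-MB-231. No line overlapped another. Of all clusters, 59.8% did not overlap in 231BoM-1833 and 63.8% in 231BrM-2a, each against MDA-MB-231, and 60.1% between the derivatives. TNFRSF11A fell 1.58-fold in 231BrM-2a against MDA-MB-231 (log2 change -0.66 ± 0.12, adjusted p = 0.00491). It was 1.84-fold higher in 231BoM-1833 than in 231BrM-2a (0.88 ± 0.12, adjusted p = 0.000777). Both calls were kept with each array left out in turn. In 231BoM-1833 against MDA-MB-231 the change was 0.22 ± 0.12 with an interval of -0.048 to 0.49, and it did not pass the test (adjusted p = 0.237).

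Upstream sequence is printed for 3 members, TNFRSF11A because it differed between the derivatives, and VCAM1 and SPP1 as examples of members dim in all lines. TNFSF11 and IBSP were dim as well, and their sequences are not printed. Sequences are from RefSeq (assembly GRCh38.p14), and 7 of the 10 genes have an entry in the set of promoters used here. Each run is the 250 bases before the annotated start on the plus strand, at chr18:62325060-62325309 for TNFRSF11A, chr1:100719492-100719741 for VCAM1 and chr4:87975464-87975713 for SPP1. Capitals mark matches on either strand to TGANTCA (AP-1, where N is any base), TGACG (CRE core), ACCACA (RUNX core) or the kappaB motif.
TNFRSF11A: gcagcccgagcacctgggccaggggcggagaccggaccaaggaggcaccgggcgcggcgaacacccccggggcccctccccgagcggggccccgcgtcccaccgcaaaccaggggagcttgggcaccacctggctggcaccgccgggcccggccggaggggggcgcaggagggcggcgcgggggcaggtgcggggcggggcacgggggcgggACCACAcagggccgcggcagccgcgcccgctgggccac
VCAM1: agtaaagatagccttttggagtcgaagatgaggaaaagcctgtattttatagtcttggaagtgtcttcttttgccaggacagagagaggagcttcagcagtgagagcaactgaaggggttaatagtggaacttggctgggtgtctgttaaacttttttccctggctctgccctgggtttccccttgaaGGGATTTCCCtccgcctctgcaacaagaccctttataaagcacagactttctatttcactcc
SPP1: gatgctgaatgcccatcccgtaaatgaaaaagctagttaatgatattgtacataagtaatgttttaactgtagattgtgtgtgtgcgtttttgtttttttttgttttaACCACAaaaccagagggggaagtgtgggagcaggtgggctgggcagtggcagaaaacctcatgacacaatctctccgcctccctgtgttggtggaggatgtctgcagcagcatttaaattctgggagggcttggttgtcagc

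The TNFRSF11A window is 82.4% G and C and holds 1 match, to the RUNX core, at 38 bases before the start. These letters occur in 11.0% of the 35116 windows of this length in the table. The VCAM1 window is 46.0% G and C and holds 1 match to the kappaB letters searched, at 62 bases before the start. These letters are found in 18.9% of all windows, and sites with other letters are not marked. The SPP1 window is 44.8% G and C and holds 1 RUNX core match, at 142 bases before the start. AP-1 and CRE core letters, in 6.57% and 21.2% of all windows, are in none of these 3. Among windows not printed, one of TNFSF11 holds a CRE core match at 50 bases before the start. One of RUNX2 holds an AP-1 match at 243 bases and RUNX core matches. The CSF2 window holds a kappaB and a RUNX core match, and the IBSP window holds no match to these motifs. These are matches of letters, and no binding was measured.

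TNFRSF11B, the gene of the decoy osteoprotegerin, rose in both derivatives. It measured 6.48 and 6.35 in 231BoM-1833, 6.51 and 6.25 in 231BrM-2a, and 5.67 and 5.78 in MDA-MB-231. All 4 derivative values exceed both MDA-MB-231 values, while the derivatives overlap each other. By its mean over all arrays, TNFRSF11B lay in the dimmest 33.3% of clusters with a symbol. The rise was 1.61-fold in 231BoM-1833 (log2 change 0.69 ± 0.12, adjusted p = 0.00721) and 1.57-fold in 231BrM-2a (0.65 ± 0.12, adjusted p = 0.00594). Between the derivatives the difference was 0.034 ± 0.12, with an interval of -0.24 to 0.31 (adjusted p = 0.881). The call in 231BoM-1833 was lost without MDA-MB-231 replicate 1 (0.0564) and that in 231BrM-2a without 231BrM-2a replicate 1 (0.0555), with adjusted p in brackets here and below.

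**Figure D2:**
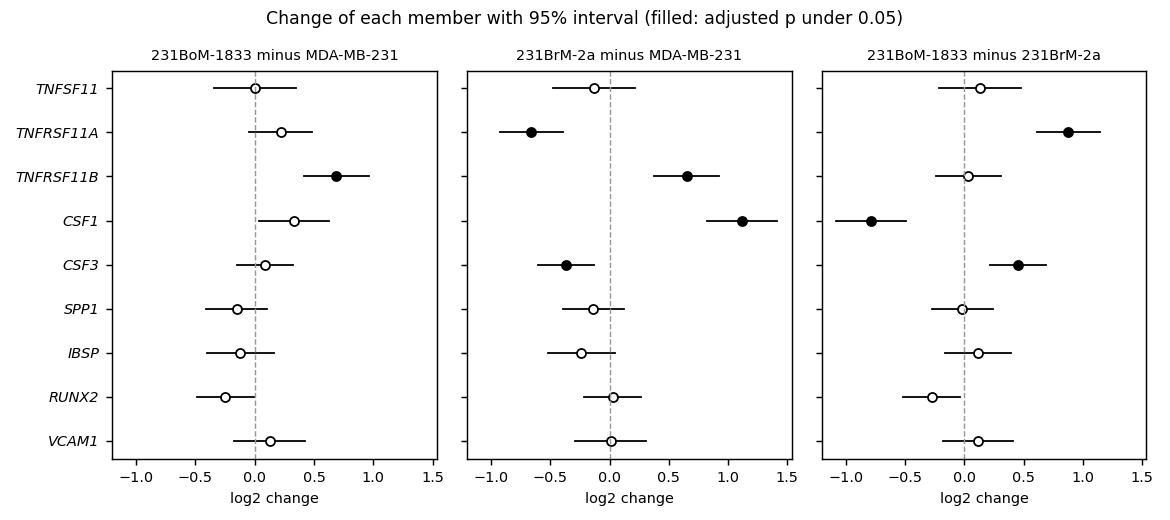
Log2 change of each of the 9 measured genes in the 3 comparisons, with its 95% interval from limma (filled points: adjusted p under 0.05; open points: not past it). TNFRSF11B is at 0.69 and 0.65 in the comparisons with MDA-MB-231 and near 0 between the derivatives, while TNFRSF11A and CSF1 lie on opposite sides of 0 in 231BrM-2a against MDA-MB-231 and between the derivatives.

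RANK signals through the adaptor TRAF6 to NF-kappaB and AP-1 factors and, in osteoclast precursors, to the transcription factor NFATC1. Of 22 genes of RANK and osteoprotegerin signalling, 19 were measured, and 0 rose and 0 fell in 231BoM-1833 and 2 rose and 5 fell in 231BrM-2a, each against MDA-MB-231, with median log2 changes of -0.042 and -0.068. The shares called were 0% and 36.8% in the 2 comparisons, beside 15.8% and 19.0% of all clusters. Where limma called 0, the counts at an unadjusted p under 0.05 were 3 higher in 231BoM-1833 and 2 lower in 231BoM-1833. FOSL2, an AP-1 subunit gene, rose 1.90-fold in 231BrM-2a (adjusted p = 0.00219), and LGR4, which encodes a further receptor for RANKL, fell 1.89-fold (0.00485). For this list, between the derivatives, 3 were higher and 1 lower in 231BoM-1833 than in 231BrM-2a, with a median of 0.12 and 21.1% called, beside 23.5% of all clusters. LGR4 was 2.27-fold higher there (adjusted p = 0.000918) and FOSL2 2.37-fold lower (0.000290). These 4 calls were kept with each array left out.

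The AP-1 gene FOS rose 1.81-fold in 231BrM-2a (adjusted p = 0.0413), a call lost without 231BrM-2a replicate 2 (0.257), MDA-MB-231 replicate 1 (0.215) or MDA-MB-231 replicate 2 (0.0687). FOSL1, of the same family, fell 1.57-fold (0.00830), a call lost without 231BrM-2a replicate 2 (0.0732) or MDA-MB-231 replicate 2 (0.0634). In 231BoM-1833 the change of FOS was 0.65 ± 0.25 (adjusted p = 0.106). TRAF6 had a change of 0.36 ± 0.14 in 231BoM-1833 (adjusted p = 0.119) and 0.014 ± 0.14 in 231BrM-2a (0.960). NFATC1 had one of -0.13 ± 0.11 in 231BoM-1833 (0.461) and -0.10 ± 0.11 in 231BrM-2a (0.572). With 1 array left out, 0 to 3 rose and 0 to 3 fell in 231BoM-1833, 1 to 2 rose and 1 to 5 fell in 231BrM-2a, and 1 to 4 were higher and 1 to 3 lower between the derivatives.

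CSF1, the growth factor that keeps macrophages and osteoclast precursors alive, had the largest change of the 9 genes against MDA-MB-231. It measured 9.22 and 9.03 in 231BoM-1833, 9.85 and 9.97 in 231BrM-2a, and 8.65 and 8.94 in MDA-MB-231. Each value of 231BrM-2a exceeds each value of the other lines. CSF1 rose 2.17-fold in 231BrM-2a against MDA-MB-231 (log2 change 1.12 ± 0.13, adjusted p = 0.000584) and was 1.72-fold lower in 231BoM-1833 than in 231BrM-2a (-0.78 ± 0.13, adjusted p = 0.00247). Both calls were kept with each array left out. In 231BoM-1833 against MDA-MB-231 the change was 0.33 ± 0.13, with an interval of 0.038 to 0.63, and it did not pass after adjustment (adjusted p = 0.115).

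With each gene centred on its mean, the genes whose profile over the 6 arrays lay nearest to that of CSF1, among 18417 others, were CD55, a complement inhibitor, GPD2, a mitochondrial glycerol phosphate dehydrogenase, and ICAM1, an adhesion molecule. Their distances from it were 0.20, 0.21 and 0.22 on the log2 scale. CD55 averaged 10.74 in 231BoM-1833, 11.53 in 231BrM-2a and 10.54 in MDA-MB-231. GPD2 averaged 9.11 in 231BoM-1833, 9.98 in 231BrM-2a and 8.88 in MDA-MB-231, and the values of ICAM1 were 10.56 in 231BoM-1833, 11.18 in 231BrM-2a and 10.06 in MDA-MB-231.

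CSF3, which encodes granulocyte colony-stimulating factor, was lowest in 231BrM-2a. It measured 9.21 and 9.20 in 231BoM-1833, 8.71 and 8.80 in 231BrM-2a, and 9.07 and 9.17 in MDA-MB-231. The 231BrM-2a values lie below all others, and those of 231BoM-1833 just above both of MDA-MB-231. CSF3 fell 1.29-fold in 231BrM-2a against MDA-MB-231 (log2 change -0.37 ± 0.10, adjusted p = 0.0379) and was 1.37-fold higher in 231BoM-1833 than in 231BrM-2a (0.45 ± 0.10, adjusted p = 0.0124). The fall was no longer called without 231BrM-2a replicate 1 (0.188), 231BrM-2a replicate 2 (0.114), MDA-MB-231 replicate 1 (0.0871) or MDA-MB-231 replicate 2 (0.206), and the difference between the derivatives not without 231BrM-2a replicate 1 (0.0904). In 231BoM-1833 against MDA-MB-231 the change was 0.087 ± 0.10 (adjusted p = 0.606).

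The receptors of these factors sit mainly on myeloid cells. Of 12 genes for colony-stimulating factor receptors and relatives, all measured, 1 rose and 0 fell in 231BoM-1833 and 3 rose and 0 fell in 231BrM-2a, each against MDA-MB-231, with median log2 changes of -0.10 and -0.067. Called in either direction were 8.33% and 25% in the 2 comparisons, beside 15.8% and 19.0% of all clusters. Where limma called 0, the counts at an unadjusted p under 0.05 were 1 lower in 231BoM-1833, 0 lower in 231BrM-2a and 0 higher between the derivatives. CSF2RA, the ligand-binding chain of the receptor for CSF2, measured 7.33 ± 0.11 in 231BoM-1833, 8.49 ± 0.14 in 231BrM-2a and 6.32 ± 0.0060 in MDA-MB-231 (mean ± SD, n = 2). It rose 2.02-fold in 231BoM-1833 (adjusted p = 0.000872) and 4.50-fold in 231BrM-2a (8.26e-06), and both calls were kept with each array left out. Its signalling partner CSF2RB had changes of -0.32 ± 0.14 in 231BoM-1833 (adjusted p = 0.142) and -0.12 ± 0.14 in 231BrM-2a (0.573).

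PDGFRB, a receptor kinase related to the CSF1 receptor, rose 3.25-fold in 231BrM-2a (adjusted p = 6.54e-05). KITLG, the ligand of KIT, rose 2.0-fold there (0.0118), a call lost without 231BrM-2a replicate 2 (0.0846), MDA-MB-231 replicate 1 (0.0624) or MDA-MB-231 replicate 2 (0.0798). CSF1R, the receptor for CSF1, had changes of -0.046 ± 0.13 in 231BoM-1833 (0.837) and -0.21 ± 0.13 in 231BrM-2a (0.300). CSF3R, the receptor for CSF3, had changes of -0.21 ± 0.15 in 231BoM-1833 (0.382) and -0.019 ± 0.15 in 231BrM-2a (0.948). IL34, a further ligand of CSF1R, had changes of -0.15 ± 0.10 in 231BoM-1833 (0.352) and -0.070 ± 0.10 in 231BrM-2a (0.667). Last, between the derivatives, 0 were higher and 3 lower in 231BoM-1833 than in 231BrM-2a, with a median of -0.12 and 25% called, beside 23.5% of all clusters. The 3 were PDGFRB (2.93-fold), CSF2RA (2.23-fold) and KITLG (1.93-fold). The last was lost without 231BoM-1833 replicate 2 (0.0682) or 231BrM-2a replicate 2 (0.0864).

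**Figure D3:**
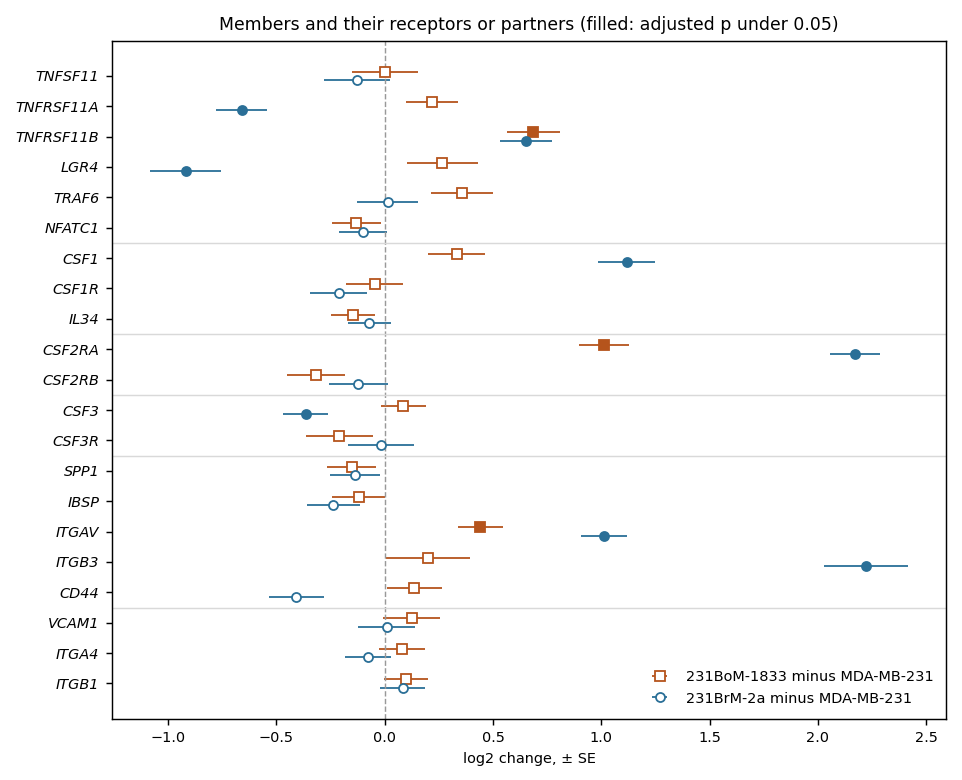
Log2 change ± SE against MDA-MB-231 of the measured genes except RUNX2, and of receptors, signalling partners or further ligands, for 231BoM-1833 and 231BrM-2a. Symbols are filled where the adjusted p was under 0.05. CSF2RA, TNFRSF11B and ITGAV are higher in both lines, while in 231BrM-2a TNFRSF11A, LGR4 and CSF3 are lower and CSF1 and ITGB3 higher.

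The matrix protein genes SPP1 and IBSP were dim in all lines. SPP1 measured 4.45 and 4.64 in 231BoM-1833, 4.60 and 4.52 in 231BrM-2a, and 4.64 and 4.75 in MDA-MB-231. Its change was -0.15 ± 0.11 in 231BoM-1833, with an interval of -0.41 to 0.10 (adjusted p = 0.389), and -0.14 ± 0.11 in 231BrM-2a, with an interval of -0.39 to 0.12 (0.437). The higher value of 231BoM-1833 touches the range of MDA-MB-231, and both values of 231BrM-2a lie below it. Groups of 2 arrays failed to overlap in 63.8% of all clusters in 231BrM-2a against MDA-MB-231, and 7 of the 9 genes did so. IBSP measured 4.50 and 4.22 in 231BoM-1833, 4.20 and 4.29 in 231BrM-2a, and 4.43 and 4.53 in MDA-MB-231. Its changes were -0.12 ± 0.12 in 231BoM-1833 (adjusted p = 0.543) and -0.24 ± 0.12 in 231BrM-2a (0.221). DMP1, MEPE and DSPP, of the same family of acidic mineral-binding proteins, were at 3.98 to 4.44 in the line means, with adjusted p of 0.187 or more in the 3 comparisons.

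Of 28 other matrix and mineralisation genes, 27 were measured, and 5 rose and 4 fell in 231BoM-1833 and 8 rose and 2 fell in 231BrM-2a, each against MDA-MB-231, with median log2 changes of -0.035 and -0.0076. As shares of the measured genes the calls came to 33.3% and 37.0% in the 2 comparisons, beside 15.8% and 19.0% of all clusters. SPARC, a collagen-binding glycoprotein abundant in bone, measured 8.77 ± 0.32 in 231BoM-1833, 6.59 ± 0.62 in 231BrM-2a and 5.56 ± 0.16 in MDA-MB-231 (mean ± SD, n = 2), and it was 4.52-fold higher in 231BoM-1833 than in 231BrM-2a (adjusted p = 0.000375). It rose 2.05-fold in 231BrM-2a against MDA-MB-231 (0.0228), a call lost without 231BrM-2a replicate 2 (0.120), MDA-MB-231 replicate 1 (0.0681) or MDA-MB-231 replicate 2 (0.149). The largest called rises in 231BoM-1833 were those of SPARC (9.25-fold, adjusted p = 0.000138) and TNC (4.74-fold, 0.000335). In 231BrM-2a the largest was that of TGFBI (7.25-fold, 2.97e-06). ECM1, an extracellular matrix glycoprotein gene, rose 2.10-fold in 231BoM-1833 (adjusted p = 0.000568) and 2.71-fold in 231BrM-2a (6.82e-05). The collagen chain gene COL5A1 rose 2.37-fold in 231BrM-2a (9.82e-05).

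For the same list, between the derivatives, 3 were higher and 6 lower in 231BoM-1833 than in 231BrM-2a, with a median of -0.050 and 33.3% called, beside 23.5% of all clusters. The matrix glycoprotein gene TNC was 5.01-fold higher (adjusted p = 8.57e-05) and TGFBI 4.62-fold lower (4.31e-06). DCN, a collagen-binding proteoglycan gene, was 3.40-fold lower (7.58e-05). Against MDA-MB-231, DCN fell 1.72-fold in 231BoM-1833 (0.0122), a call lost without 231BoM-1833 replicate 2 (0.0533) or MDA-MB-231 replicate 1 (0.0838). Leaving out 1 array at a time, 4 to 5 rose and 1 to 5 fell in 231BoM-1833, 5 to 8 rose and 1 to 3 fell in 231BrM-2a, and 2 to 3 were higher and 4 to 6 lower between the derivatives.

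Osteopontin and bone sialoprotein are bound by the alpha-v beta-3 integrin, the main osteoclast integrin, and osteopontin also by CD44. ITGB3, the beta-3 chain, measured 8.44 ± 0.25 in 231BoM-1833, 10.46 ± 0.41 in 231BrM-2a and 8.24 ± 0.16 in MDA-MB-231 (n = 2). It rose 4.67-fold in 231BrM-2a against MDA-MB-231 (adjusted p = 0.000117) and was 4.07-fold lower in 231BoM-1833 than in 231BrM-2a (0.000116). ITGAV, the alpha-v chain, rose 2.02-fold in 231BrM-2a (adjusted p = 0.000279). It rose 1.36-fold in 231BoM-1833 (0.0225), a call lost without 231BoM-1833 replicate 1 (0.0727), MDA-MB-231 replicate 1 (0.103) or MDA-MB-231 replicate 2 (0.108). CD44, one of the sort markers, was 1.46-fold higher in 231BoM-1833 than in 231BrM-2a (adjusted p = 0.0140). That call did not hold with 231BoM-1833 replicate 1 left out (adjusted p = 0.0565), and leaving out either array of 231BrM-2a gave 0.0740 (replicate 1) and 0.0704 (replicate 2).

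Of 12 receptor genes for VCAM1, osteopontin and bone sialoprotein, all measured, 1 rose and 2 fell in 231BoM-1833 and 3 rose and 0 fell in 231BrM-2a, each against MDA-MB-231, with median log2 changes of 0.025 and 0.0021. The shares called were 25% and 25% in the 2 comparisons, beside 15.8% and 19.0% of all clusters. Where limma called 0, the counts at an unadjusted p under 0.05 were 4 lower in 231BrM-2a. For these receptors, between the derivatives, 2 were higher and 3 lower in 231BoM-1833 than in 231BrM-2a, with a median of -0.094 and 41.7% called, beside 23.5% of all clusters. ITGB5, the beta-5 chain, was 2.11-fold lower there (adjusted p = 0.000358). Over the fits without 1 array, 0 to 1 rose and 0 to 2 fell in 231BoM-1833, 2 to 3 rose and 0 to 1 fell in 231BrM-2a, and 0 to 2 were higher and 3 lower between the derivatives.

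RUNX2, the osteoblast transcription factor, measured 8.51 and 8.46 in 231BoM-1833, 8.69 and 8.83 in 231BrM-2a, and 8.78 and 8.68 in MDA-MB-231. Both values of 231BoM-1833 lie below all 4 others, and the groups of 2 arrays failed to overlap in 59.8% of all clusters against MDA-MB-231 and in 60.1% between the derivatives. The change was -0.25 ± 0.11 in 231BoM-1833 against MDA-MB-231, with an interval of -0.49 to -0.0063 (adjusted p = 0.145), and -0.27 ± 0.11 in 231BoM-1833 against 231BrM-2a (0.101). In 231BrM-2a against MDA-MB-231 the change was 0.026 ± 0.11 (adjusted p = 0.893). CBFB, the subunit with which RUNX proteins bind DNA, had changes of -0.25 ± 0.15 in 231BoM-1833 (0.281) and -0.20 ± 0.15 in 231BrM-2a (0.398).

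Of 22 genes of osteoblast transcription and BMP signalling, 20 were measured, and 1 rose and 1 fell in 231BoM-1833 and 3 rose and 4 fell in 231BrM-2a, each against MDA-MB-231, with median log2 changes of -0.15 and -0.24. Called in either direction were 10% and 35% in the 2 comparisons, beside 15.8% and 19.0% of all clusters. MSX2, a homeobox factor induced by bone morphogenetic proteins, rose 2.07-fold in 231BrM-2a (adjusted p = 0.000621), and the receptor gene BMPR2 rose 1.63-fold (0.00266). The ligand gene BMP6 fell 1.76-fold there (0.00147). MSX2 also rose 1.36-fold in 231BoM-1833 (0.0404), a call lost without 231BoM-1833 replicate 1 (0.0860), 231BoM-1833 replicate 2 (0.0979), MDA-MB-231 replicate 1 (0.0693) or MDA-MB-231 replicate 2 (0.235).

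ID1, a BMP target that blocks helix-loop-helix factors, was 2.93-fold lower in 231BoM-1833 than in 231BrM-2a (adjusted p = 0.000405). Against MDA-MB-231 it fell 1.62-fold in 231BoM-1833 (0.0357), a call lost without 231BoM-1833 replicate 2 (0.148), MDA-MB-231 replicate 1 (0.130) or MDA-MB-231 replicate 2 (0.155). It rose 1.81-fold in 231BrM-2a (0.0125), a call lost without 231BrM-2a replicate 2 (0.0966), MDA-MB-231 replicate 1 (0.0659) or MDA-MB-231 replicate 2 (0.0805). For the whole list, between the derivatives, 4 were higher and 3 lower in 231BoM-1833 than in 231BrM-2a, with a median of -0.053 and 35% called, beside 23.5% of all clusters. With 1 array left out, 0 to 1 rose and 0 to 3 fell in 231BoM-1833, 2 to 3 rose and 1 to 4 fell in 231BrM-2a, and 1 to 3 were higher and 1 to 3 lower between the derivatives.

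VCAM1, the adhesion molecule, was dim as well. It measured 4.42 and 4.72 in 231BoM-1833, 4.44 and 4.47 in 231BrM-2a, and 4.34 and 4.55 in MDA-MB-231. Both values of 231BrM-2a lie inside the range of each other line, and all lines overlap. Its change was 0.12 ± 0.13 in 231BoM-1833, with an interval of -0.17 to 0.42 (adjusted p = 0.554), and 0.0100 ± 0.13 in 231BrM-2a, with an interval of -0.29 to 0.31 (0.969). Its integrin receptor is made of ITGA4, at 5.05 ± 0.11 in 231BoM-1833, 4.89 ± 0.030 in 231BrM-2a and 4.97 ± 0.021 in MDA-MB-231, and ITGB1, at 12.08 ± 0.063 in 231BoM-1833, 12.06 ± 0.044 in 231BrM-2a and 11.98 ± 0.026 in MDA-MB-231 (n = 2). Their adjusted p was 0.345 or more in the 3 comparisons.

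Of 14 endothelial-type adhesion and anchoring genes, 13 were measured, and 5 rose and 0 fell in 231BoM-1833 and 4 rose and 2 fell in 231BrM-2a, each against MDA-MB-231, with median log2 changes of 0.20 and 0.030. As shares of the measured genes the calls came to 38.5% and 46.2% in the 2 comparisons, beside 15.8% and 19.0% of all clusters. Where limma called 0, the counts at an unadjusted p under 0.05 were 1 lower in 231BoM-1833. MCAM, a cell surface adhesion molecule, rose 2.43-fold in 231BoM-1833 (adjusted p = 0.00213) and 2.66-fold in 231BrM-2a (0.000793). The neural adhesion gene L1CAM rose 2.10-fold in 231BoM-1833 (0.00118) and 1.91-fold in 231BrM-2a (0.00147).

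ICAM1, a ligand of leukocyte integrins, rose 2.17-fold in 231BrM-2a (adjusted p = 0.00110) and had a change of 0.49 ± 0.15 in 231BoM-1833 (0.0529). ICAM2, of the same family, fell 1.65-fold in 231BrM-2a (0.00432) and was 2.72-fold higher in 231BoM-1833 than in 231BrM-2a (6.59e-05). It rose 1.65-fold in 231BoM-1833 against MDA-MB-231 (0.00697), a call lost without MDA-MB-231 replicate 1 (0.0503) or MDA-MB-231 replicate 2 (0.0534). For the whole list, between the derivatives, 1 was higher and 1 lower in 231BoM-1833 than in 231BrM-2a, with a median of 0.028 and 15.4% called, beside 23.5% of all clusters. Leaving out 1 array at a time, 2 to 5 rose and 0 fell in 231BoM-1833, 3 to 4 rose and 1 to 2 fell in 231BrM-2a, and 1 were higher and 0 to 1 lower between the derivatives.

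Tumour cells also act on bone cells through secreted factors. Of 27 osteolytic factors and their modulators, several of which come from earlier studies of these same lines, so that their direction is not independent evidence, 26 were measured, and 9 rose and 4 fell in 231BoM-1833 and 2 rose and 8 fell in 231BrM-2a, each against MDA-MB-231, with median log2 changes of 0.14 and -0.24. The shares called were 50% and 38.5% in the 2 comparisons, beside 15.8% and 19.0% of all clusters. CXCL8, which encodes interleukin 8, fell 3.22-fold in 231BrM-2a (adjusted p = 0.00172) and was 5.76-fold higher in 231BoM-1833 than in 231BrM-2a (0.000112). IL6, a cytokine that induces RANKL in stromal cells, rose 2.49-fold in 231BrM-2a (0.00420), and TGFB2, a transforming growth factor gene, rose 2.92-fold (0.000224).

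The 4 largest called changes of that list in 231BoM-1833 against MDA-MB-231 were those of the chemokine receptor gene CXCR4 (7.0-fold higher), the cytokine genes IL1B (6.89-fold higher) and IL1A (4.38-fold higher), and the inducible cyclooxygenase gene PTGS2 (4.58-fold higher). Of the osteolytic factors between the derivatives, 12 were higher and 4 lower in 231BoM-1833 than in 231BrM-2a, with a median of 0.50 and 61.5% called, beside 23.5% of all clusters. The collagenase gene MMP1 measured 13.86 ± 0.41 in 231BoM-1833, 6.93 ± 1.05 in 231BrM-2a and 12.69 ± 0.078 in MDA-MB-231 (n = 2), so that its arrays of 231BrM-2a stood far apart. It fell 54.4-fold in 231BrM-2a against MDA-MB-231, and 91.2-fold with the first 231BrM-2a array left out and 32.4-fold with the second left out. MMP1 was 122-fold higher in 231BoM-1833 than in 231BrM-2a, and 205-fold or 72.9-fold higher when the first or the second 231BrM-2a array was left out. Both calls were kept. Over the fits without 1 array, 5 to 11 rose and 0 to 4 fell in 231BoM-1833, 2 rose and 5 to 10 fell in 231BrM-2a, and 10 to 13 were higher and 2 to 4 lower between the derivatives.

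Osteoclast genes were listed because the sorted cells could carry transcripts of that type. Of 16 osteoclast effector genes, 15 were measured, and 1 rose and 0 fell in 231BoM-1833 and 3 rose and 1 fell in 231BrM-2a, each against MDA-MB-231, with median log2 changes of 0.041 and -0.081. Called in either direction were 6.67% and 26.7% in the 2 comparisons, beside 15.8% and 19.0% of all clusters. Where limma called 0, the counts at an unadjusted p under 0.05 were 0 lower in 231BoM-1833. CTSK, the collagen-degrading cathepsin of osteoclasts, measured 6.39 ± 0.0084 in 231BoM-1833, 6.71 ± 0.080 in 231BrM-2a and 5.68 ± 0.32 in MDA-MB-231 (n = 2). It rose 2.04-fold in 231BrM-2a (adjusted p = 0.00163), and 1.63-fold in 231BoM-1833 (0.0136), the last a call lost without MDA-MB-231 replicate 2 (0.0907). CALCR, the calcitonin receptor gene, rose 1.63-fold in 231BrM-2a (0.00297), but it was dim, with 5.24 ± 0.15 in 231BrM-2a and 4.53 ± 0.062 in MDA-MB-231.

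TCIRG1, a proton pump subunit gene, rose 1.59-fold in 231BrM-2a (adjusted p = 0.00601), a call lost without 231BrM-2a replicate 2 (0.0587) or MDA-MB-231 replicate 2 (0.0628). MMP9, a gelatinase gene, fell 1.76-fold (0.00663), a call lost without 231BrM-2a replicate 1 (0.0538) or MDA-MB-231 replicate 1 (0.0522). Over the 7 measured of 8 osteoclast markers, the mean log2 value per array was 5.44 to 5.56 in 231BoM-1833, 5.51 to 5.55 in 231BrM-2a and 5.32 to 5.34 in MDA-MB-231. Over 7 of 8 osteoblast markers it was 5.44 to 5.48 in 231BoM-1833, 5.46 to 5.50 in 231BrM-2a and 5.56 to 5.57 in MDA-MB-231, and over 9 of 10 leukocyte markers 5.48 to 5.52 in 231BoM-1833, 5.34 to 5.39 in 231BrM-2a and 5.50 to 5.52 in MDA-MB-231. The part of other cell types in these results was not tested.

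For the osteoclast effectors, between the derivatives, 3 were higher and 2 lower in 231BoM-1833 than in 231BrM-2a, with a median of 0.071 and 33.3% called, beside 23.5% of all clusters. CALCR, which was dim, was 1.62-fold lower (adjusted p = 0.00236), a call kept with each array left out. TCIRG1 was 1.48-fold lower (0.0104), a call not kept without 231BrM-2a replicate 2 (0.0902). MMP9 was 1.52-fold higher (0.0207), a call lost without 231BrM-2a replicate 2 (0.0590), 231BrM-2a replicate 1 (0.125) or 231BoM-1833 replicate 1 (0.0804). The proton pump gene ATP6V0D2 was 1.38-fold higher (0.0204), but it was dim, with means of 3.99 in 231BoM-1833 and 3.53 in 231BrM-2a. That call was lost without 231BrM-2a replicate 2, 231BrM-2a replicate 1 or 231BoM-1833 replicate 2. With 1 array left out, 0 to 1 rose and 0 fell in 231BoM-1833, 2 to 3 rose and 0 to 1 fell in 231BrM-2a, and 0 to 3 were higher and 1 to 2 lower between the derivatives.

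**Figure D4:**
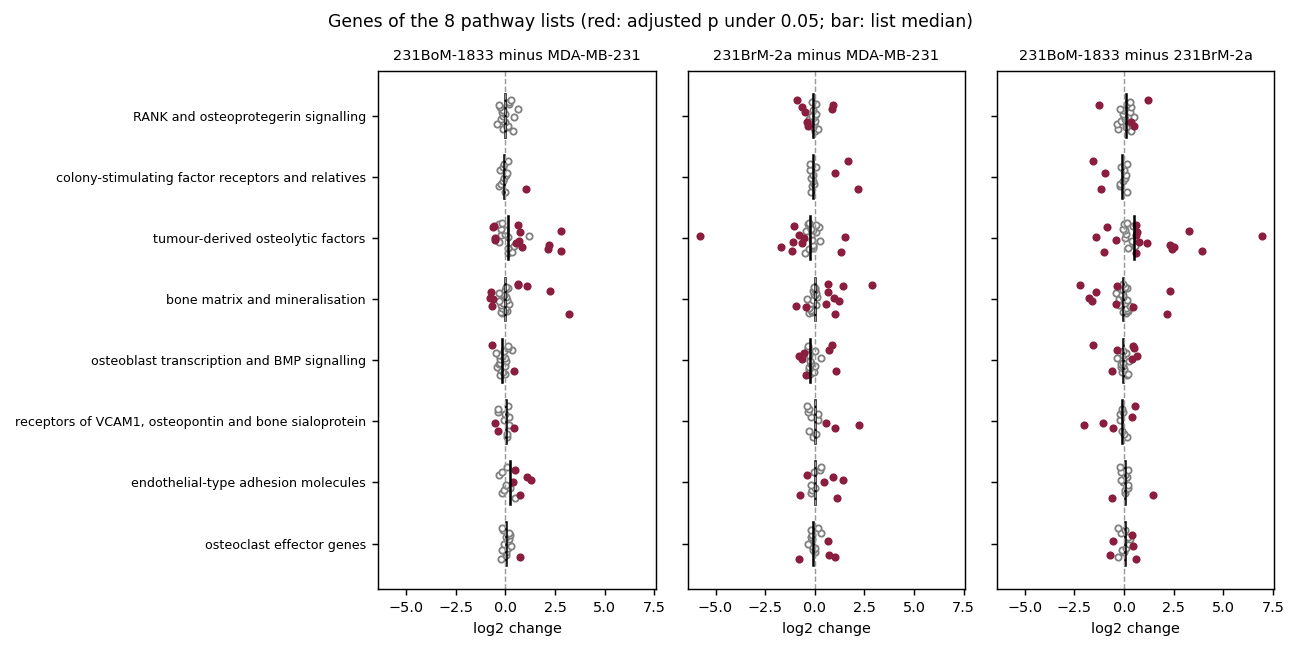
Log2 change of every measured gene of the 8 lists in the 3 comparisons (red points: adjusted p under 0.05; open points: not past it; bar: median of the list). MMP1 is at -5.77 in 231BrM-2a against MDA-MB-231 and at 6.93 between the derivatives, and the RANK signalling list has no red point in 231BoM-1833 against MDA-MB-231.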

How the data were processed

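Sorted cells of 3 lines were measured on 6 arrays, 2 per line. Each transcript cluster has 1 deposited log2 value per array, made by the authors with RMA in the Affymetrix Expression Console, per the labels and the submitters' processing notes; versions are not given in the sources used here. RMA puts all arrays on 1 scale, so a change in total RNA per cell does not show, and the number of arrays limits precision. Of 33297 clusters, 21214 carried a gene symbol in the platform table (19461 exactly 1). A gene was read only from clusters with exactly 1 symbol, and from the one with the highest mean where it had several. A gene found only on a cluster shared with other symbols would count as not measured. A mean per line was fitted with limma 3.58.1 in R 4.3.3 (lmFit, eBayes, two-sided, Benjamini-Hochberg, threshold 0.05; 3 residual and 6.06 prior degrees of freedom). In 5 simulated tables for 231BoM-1833 against MDA-MB-231, 200 of 21214 clusters were changed. The fit recovered on average 9.25%, 71.0% and 97.0% of log2 changes of 0.5, 1 and 2. The adjustment depends on the number of changed clusters, and 3354 were called in the data, so these shares need not hold there. The members and the 8 lists (152 genes, 143 measured) were chosen with earlier results of these data known. From each list and comparison, up to 4 genes with the largest called change were eligible to be named, or the largest change where none passed; receptors, adaptors and relatives of the members were added after their values were seen. Motifs were searched in RefSeq promoters (GRCh38.p14). Alternatives were the replicate block, leaving out each array, fits of 2 lines, other sets of clusters, renormalisation, other moderation and a fold threshold.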

Additional observations from a re-analysis of the deposited data

Results flagged for a closer look

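For 3 of the 9 genes (33.3%) the change against MDA-MB-231 differed between the derivatives by limma's test of that difference, in which the MDA-MB-231 arrays cancel. It is the comparison of the derivatives already given above, in which 23.5% of all clusters were called. The difference (231BoM-1833 minus 231BrM-2a) was 0.88 on the log2 scale for TNFRSF11A (adjusted p = 0.000777), -0.78 for CSF1 (0.00247) and 0.45 for CSF3 (0.0124). The derivatives did not overlap for these genes, as for 60.1% of all clusters. The CSF3 difference was not called without 231BrM-2a replicate 1 (0.0904).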

How the results depend on the processing

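No called change of a member turned its direction under the alternatives run, and both CSF1 calls and the TNFRSF11A difference between the derivatives were kept under all 17. Against a fold of at least 1.2 (limma's treat), 0 members were higher in 231BoM-1833 and 1 higher and 0 lower in 231BrM-2a, each against MDA-MB-231. Between the derivatives, 1 was higher and 1 lower in 231BoM-1833 than in 231BrM-2a. Under treat, TNFRSF11A had an adjusted p of 0.0589 in 231BrM-2a, and TNFRSF11B had 0.0790 in 231BoM-1833 and 0.0705 in 231BrM-2a. With the dimmest 33.3% of clusters left out, TNFRSF11B and the 4 dim members were not tested, which left 0 higher in 231BoM-1833 and 1 in 231BrM-2a. With clusters without a symbol also tested, 1 member was lower in 231BrM-2a (CSF3 adjusted p = 0.0826), and 5 list genes were lower in 231BoM-1833 against MDA-MB-231, beside 11 in the analysis reported, and 17 higher against 231BrM-2a, beside 27. With 1 array left out, members higher numbered 0 to 1 in 231BoM-1833 and 1 to 2 in 231BrM-2a against MDA-MB-231, members lower in 231BrM-2a 1 to 2, and members higher between the derivatives 1 to 2. List genes then numbered 13 to 27 higher and 2 to 17 lower in 231BoM-1833, 19 to 28 higher and 11 to 23 lower in 231BrM-2a, and 17 to 25 higher and 14 to 24 lower between the derivatives. Calls over all clusters, 3354, 4040 and 4976 in the 3 comparisons, ranged over 932 to 2936, 1764 to 4751 and 3001 to 4750, and were 748, 1413 and 2093 with treat and 2220, 2894 and 4254 with clusters without a symbol. Replicate numbers did not pair the arrays: deviations of replicate 1 from the line mean correlated at 0.036 (231BoM-1833 with MDA-MB-231), -0.17 (231BoM-1833 with 231BrM-2a) and -0.16 (231BrM-2a with MDA-MB-231). With the replicate block, calls numbered 2724, 3535 and 4564, and 1 member was lower in 231BrM-2a (CSF3 adjusted p = 0.0621). With the numbers of 231BrM-2a turned round in the block, a setting added after the data were seen, they numbered 3821, 4468 and 5387. The causes of these shifts were not tested, and no background level was available to set a limit for the dim members.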

Other observations

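Among the endothelial markers, TIE1 and KDR, receptor kinases of blood vessels, differed between the lines, while the adjusted p of CDH5 and VWF was 0.716 or more. TIE1 measured 6.84 and 6.94 in 231BoM-1833, 5.97 and 5.71 in 231BrM-2a, and 7.67 and 7.81 in MDA-MB-231, with log2 changes of -0.86 ± 0.12 in 231BoM-1833 (limma adjusted p = 0.00269) and -1.90 ± 0.12 in 231BrM-2a (2.66e-05). KDR measured 8.31 and 8.56 in 231BoM-1833, 6.77 and 6.95 in 231BrM-2a, and 8.04 and 7.95 in MDA-MB-231, with a change of -1.13 ± 0.13 in 231BrM-2a (0.000425). These 3 calls were kept with each array left out. In 231BoM-1833, KDR had a called rise of 0.44 ± 0.13 (0.0444), and of the 6 fits that each left out 1 array it was called in 1, the fit without 231BoM-1833 replicate 1. The adjusted p of KDR in the others was 0.0617 to 0.213. PECAM1, an adhesion gene of endothelium and platelets, had a called change of -0.38 ± 0.11 in 231BrM-2a (0.0382), lost without 231BrM-2a replicate 1 (0.215), 231BrM-2a replicate 2 (0.0810), MDA-MB-231 replicate 1 (0.0961) or MDA-MB-231 replicate 2 (0.199). These genes were named after their values were seen.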
